A study of Mus musculus with 12 samples.

Results

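Hlf, Mecom, Prdm16, Mllt3, Msi2, Angpt1, Emcn and Procr are genes known from haematopoietic stem cells, and their transcripts were followed through 3 progenitor types of mouse bone marrow, the lymphoid-primed multipotent progenitor (LMPP), the common lymphoid progenitor (CLP) and the granulocyte-monocyte progenitor (GMP). These 8 genes were chosen by name, with earlier results of these data known, and each matched 1 of the 38924 gene IDs in the deposited table. Bulk RNA-seq had been done on cells sorted from female mice of the inbred strain C57Bl/6J, with no mutation or treatment named for any group. The 12 libraries were 4 of LMPP, 4 of CLP and 4 of GMP, and by the sample titles each type had 2 libraries in batch 1 and 2 in batch 2. After depletion of cells with mature lineage markers, LMPP were gated as Sca1+ and cKit+ cells that were CD150-, CD34+ and high in Flk2. CLP were gated as cells positive for IL7Ra and for Flk2 that had low cKit and low Sca1, and GMP as Sca1- cKit+ cells that were CD150-, CD34+ and positive for the Fc gamma receptor. For these libraries the sources used here do not state the age of the mice. They also do not say whether the 4 libraries of a type were made from different mice, so the p-values reflect the spread between libraries, which may be technical.

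Haematopoietic stem cells renew themselves and give rise to all blood cells, and LMPP are an early step on the way to lymphoid and myeloid cells that has lost most capacity to make platelets and red cells. CLP lie further along the lymphoid branch and GMP along the myeloid branch. The stem cell state is held by transcription factors and chromatin regulators such as HLF, MECOM (also called EVI1 or PRDM3), PRDM16 and MLLT3 (AF9), by the RNA-binding protein MSI2, and by signals at the cell surface, where angiopoietin 1 is the ligand of the receptor TIE2. Endomucin (Emcn) and the endothelial protein C receptor (Procr) are surface proteins that stem cells share with endothelium and that are used to sort them. No stem cell library is among the 12, so how much of the stem cell level LMPP keep was not measured. What these data give is the level in LMPP and its relation to the levels in CLP and GMP.

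Values were TPM, transcript levels relative to the total of each library that are scaled for transcript length and can be compared between genes. A gene was described as on in a cell type when all 4 libraries listed it at 1 TPM or more, as off when all 4 were under 1 TPM, and as mixed otherwise. In LMPP all 8 genes were on. In CLP, Hlf, Msi2, Mllt3 and Angpt1 were on, Mecom, Prdm16 and Emcn were mixed, and Procr was off. In the batch 1 CLP libraries alone, Mecom (2.72 and 16.2 TPM) and Emcn (2.92 and 5.11 TPM) were also on, and Prdm16 (0.64 and 0.71 TPM) was off with Procr. Without CLP batch 2 replicate 1, Emcn was on in CLP. In GMP Hlf, Msi2, Mllt3 and Angpt1 were on, Mecom, Prdm16, Emcn and Procr were mixed, and none was off. With the line at 2 TPM, Prdm16 and Procr were off in CLP, and Emcn and Procr were off in GMP. In bulk RNA, fewer cells that express a gene and less RNA per cell cannot be told apart.

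Within LMPP the means ran, in TPM (SD, n = 4), from 105 ± 32.2 for Hlf over 81.8 ± 13.3 for Msi2, 63.6 ± 10.9 for Angpt1, 48.8 ± 29.3 for Mecom, 24.2 ± 10.3 for Mllt3, 15.3 ± 5.47 for Emcn and 6.75 ± 1.59 for Procr to 3.75 ± 2.84 for Prdm16. Each gene's range over the 4 LMPP libraries overlapped that of its neighbour in this order. Within each of the 4 libraries, however, Hlf was above Msi2, Msi2 above Angpt1, Emcn above Procr and Procr above Prdm16. The other neighbours changed order between libraries. LMPP batch 2 replicate 3 had the highest value of its type for 7 of the 8 genes, all but Angpt1. That library also held the largest share of mitochondrially encoded transcripts, 31.4% of its TPM, against 17.998% to 24.965% in the other LMPP libraries, 18.1% to 22.8% in CLP and 11.9% to 22.6% in GMP, and its part in these values was not tested.

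**Figure D1:**
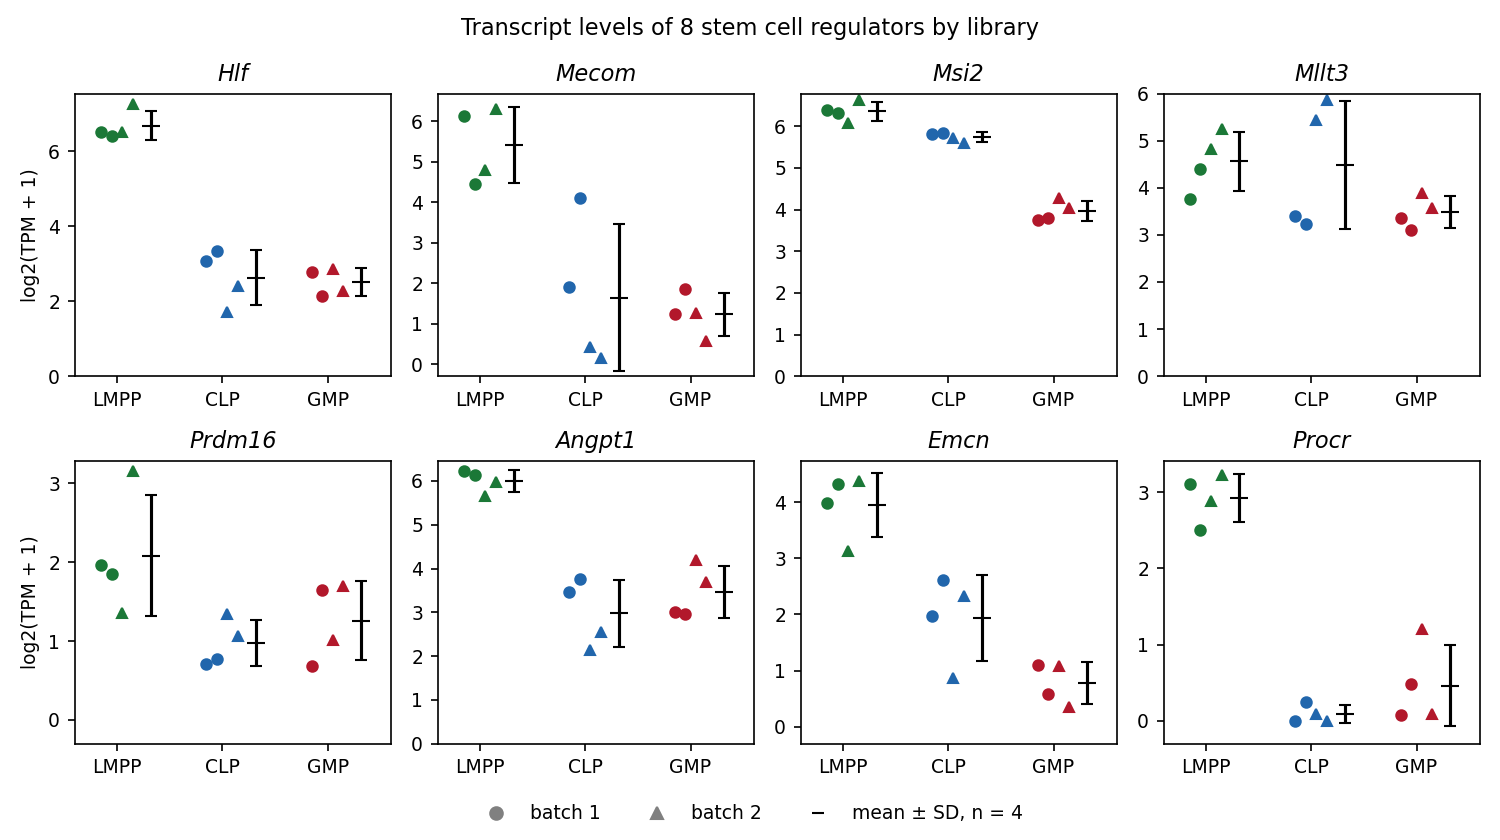
Each panel plots log2(TPM + 1) of 1 gene in the 4 LMPP, 4 CLP and 4 GMP libraries, with circles for batch 1, triangles for batch 2, and a black mark with bars for the mean ± SD of the 4 libraries. All 4 LMPP values lie above all CLP values for every gene but Mllt3, and the CLP values of Mllt3 split by batch.

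The sorted populations were checked on gate and lineage genes, and 2 CLP libraries were low in Flt3, a gene of their gate. Il7r, also of the CLP gate, ranged over 76.64 to 129.77 TPM in CLP, 5.14 to 11.27 TPM in LMPP and 0.04 to 0.3 TPM in GMP. Kit and Ly6a, the gene of Sca1, reached at most 46.71 and 37.58 TPM in CLP. Their lowest LMPP values were 89.45 and 85.99 TPM. Flt3, the gene of Flk2, stood at 8.91 and 16.98 TPM in CLP of batch 2, against 138.28 and 146.13 TPM in CLP of batch 1. Cd34, which is not part of the CLP gate, stood at 16.96 and 14.85 TPM in CLP of batch 2. It stood at 111.33 and 163.76 TPM in CLP of batch 1. The summed TPM of 10 B lineage genes was 4861.62 and 6123.91 in CLP of batch 2, against 1021.75 and 97.87 in CLP of batch 1, 34.62 to 123.44 in LMPP and 34.1 to 44.62 in GMP. LMPP batch 2 replicate 1 and CLP batch 2 replicate 1 were rich in haemoglobin and neutrophil transcripts, with 10 erythroid genes summing to 28570 and 13618 TPM, against 41.1 to 2478 TPM in the other 10 libraries. The calls of the 8 genes between LMPP and CLP are also given without these libraries. Libraries listed 11956 to 12987 genes at 1 TPM or more in LMPP, 11163 to 12144 in CLP and 11064 to 11342 in GMP. Depth is unknown, because TPM carries no read numbers.

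Each gene's upstream sequence gives the setting of its start site. RefSeq promoter windows of 300 bases, 250 before and 50 after an annotated start (GRCm38.p6), were found for 7 of the 8 genes in 11 windows, and Angpt1 had no entry. Those of 4 genes are shown, cut to the bases upstream of both the RefSeq start and the GENCODE gene start, and printed 5′ to 3′ on the strand of the gene, with CG dinucleotides in capitals. Hlf is shown as the highest in LMPP, Procr as the gene off in CLP, Mllt3 as the gene whose CLP mean lay above its LMPP mean, and Emcn as the window poorest in CG.
Hlf (chr11:90390918-90391167, minus strand): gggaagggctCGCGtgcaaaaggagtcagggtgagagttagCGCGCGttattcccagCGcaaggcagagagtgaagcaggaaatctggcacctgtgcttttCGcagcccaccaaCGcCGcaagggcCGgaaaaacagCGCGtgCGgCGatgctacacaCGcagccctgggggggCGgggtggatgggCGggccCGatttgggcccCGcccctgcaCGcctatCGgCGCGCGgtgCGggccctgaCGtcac
Procr (chr2:155750967-155751116, plus strand): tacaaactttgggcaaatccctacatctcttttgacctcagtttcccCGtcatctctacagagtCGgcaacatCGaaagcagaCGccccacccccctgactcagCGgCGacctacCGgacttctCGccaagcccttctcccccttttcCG
Mllt3 (chr4:88033408-88033657, minus strand): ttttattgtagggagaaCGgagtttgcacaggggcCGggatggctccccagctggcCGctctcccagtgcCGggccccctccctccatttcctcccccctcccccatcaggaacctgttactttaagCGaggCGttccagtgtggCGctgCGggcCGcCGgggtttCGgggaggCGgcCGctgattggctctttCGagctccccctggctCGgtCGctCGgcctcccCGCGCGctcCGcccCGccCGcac
Emcn (chr3:137340828-137341066, plus strand): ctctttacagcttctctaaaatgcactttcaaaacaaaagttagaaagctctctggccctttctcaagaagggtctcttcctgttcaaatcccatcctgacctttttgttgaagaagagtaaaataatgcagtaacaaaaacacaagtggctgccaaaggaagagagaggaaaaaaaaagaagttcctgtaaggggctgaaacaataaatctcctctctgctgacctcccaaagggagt
The printed stretches differ in length, and hold 26 CG dinucleotides in 250 bases for Hlf, 9 in 150 bases for Procr, 23 in 250 bases for Mllt3 and 0 in 239 bases for Emcn. Over the full 300 bases, Msi2 had 37 to 39 CG dinucleotides at its 3 starts, Hlf 30, Mllt3 29 at its first start and 4 at the start inside the gene, Prdm16 24, Mecom 19 and 9, Procr 13 and Emcn 2, with a median of 7 over all windows. The genes kept in CLP and those that dropped there both included CG-rich windows. On either strand, CCAAT, the box bound by NF-Y, was in 7 of the 11 windows, belonging to Mecom, Mllt3, Prdm16 and Msi2. It was in 37.4% of all 32851 windows. The 3 Msi2 windows share most of their bases, so the same stretch can be counted repeatedly among the 11. Whether CCAAT is more frequent at these genes was not tested. The letters searched for HLF-type factors (TTACNTAA, 2.32% of all windows), GATA factors (GATAAG, 7.44%), RUNX factors (TGTGGT, 16.8%), ETS factors (GGAAGT, 23.8%) and the TATA box (TATAAA, 13.6%) were in none of the 11. None of these motifs contains another. A match is a description and not a binding site.

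Compared with CLP, LMPP held higher levels of Hlf, Mecom, Angpt1, Emcn, Procr and Msi2. With limma on log2(TPM + 1), with a term for batch and p-values adjusted over all 12718 genes tested, 6 of the 8 genes were called higher in LMPP than in CLP and 0 lower, while 7.23% of all tested genes were called higher and 2.8% lower. For 7 of the 8, all LMPP libraries lay above all CLP libraries, as they did for 8.81% of tested genes. The median difference was 2.43 over the 8 genes and 0.17 over all tested genes, on the log2 scale. Against GMP, 7 of the 8 were called higher in LMPP and 0 lower, with 21.3% of tested genes called higher and 7.62% lower. All LMPP libraries lay above all GMP libraries for 6 of the 8, and for 22.7% of tested genes. There the median was 2.499 for the 8 genes and 0.24 for all tested genes. The 2 comparisons share the LMPP libraries, and the 8 genes were chosen with earlier results of these data known. The counts set beside all tested genes are thus a description and not a test. Of all calls, 72.1% were higher in LMPP than in CLP and 73.6% higher in LMPP than in GMP. Median-ratio scaling of the libraries shifted the median of all tested genes by -0.15 and -0.25 in these comparisons, and the shares were then 46.9% and 45.9%. The calls over all tested genes were then 533 higher and 604 lower against CLP, and 1646 higher and 1944 lower against GMP. Mllt3 in LMPP against CLP then changed sign, and the 8 genes kept every other sign in both comparisons. All 8 genes passed the filter of 1 TPM in 4 libraries. Procr reached 1 TPM in the 4 LMPP libraries and in 1 GMP library, so it passed only through LMPP, where it was high. Its calls against CLP and GMP, which are included in the counts above, thus give no separate support.

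**Figure D2:**
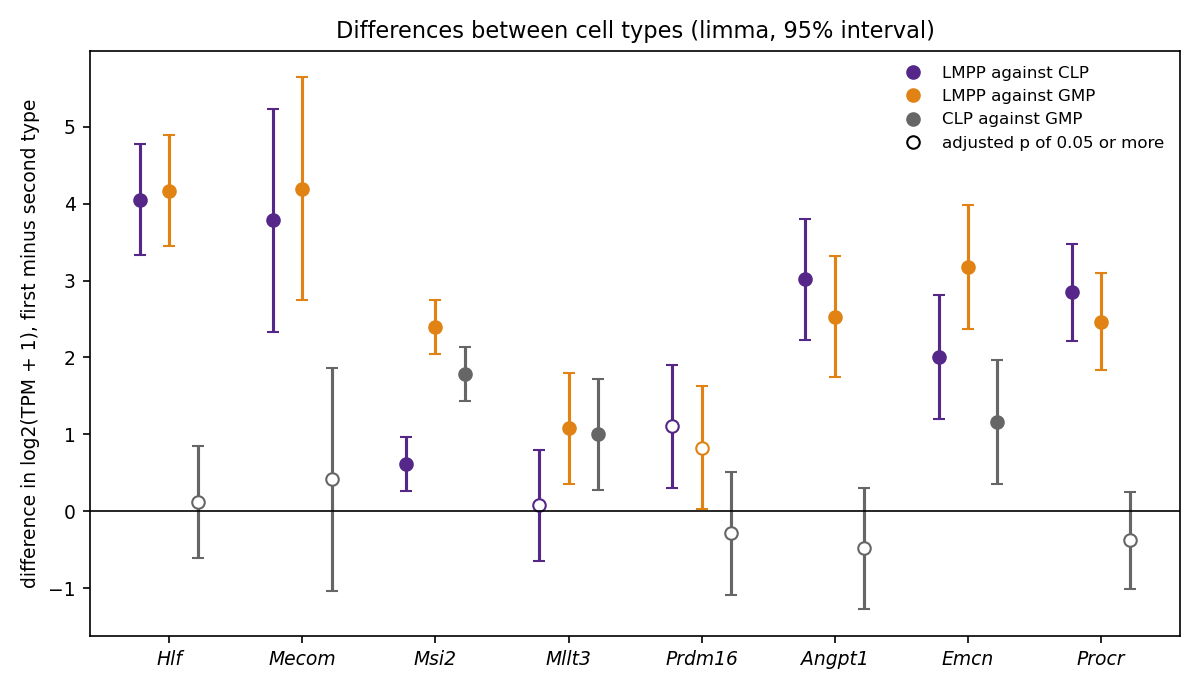
The difference in log2(TPM + 1) is plotted for each gene with its 95% interval from limma, for LMPP against CLP, LMPP against GMP and CLP against GMP, with filled points where the adjusted p was under 0.05. Hlf and Mecom lie highest in both LMPP comparisons, at 3.78 to 4.20, with their CLP against GMP points near 0, and Msi2 has its larger steps in the comparisons with GMP.

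Hlf, a PAR bZIP transcription factor that restrains stem cell cycling, lies on the minus strand of chromosome 11 (90336536 to 90390895, mm10). Its level was 90.99, 84.45, 91.25 and 152.99 TPM over the LMPP libraries, 7.42, 9.05, 2.29 and 4.32 TPM over the CLP libraries, and 5.88, 3.42, 6.3 and 3.81 TPM over the GMP libraries, with the batch 1 libraries given first. Every LMPP library was far above every other library, and CLP and GMP overlapped. The CLP mean was 5.50% of the LMPP mean and the GMP mean 4.63%, yet no CLP or GMP library was under 2 TPM. The difference was 4.05 in LMPP against CLP (SE 0.333, limma adjusted p = 8.62e-05) and 4.17 in LMPP against GMP (SE 0.333, limma adjusted p = 1.34e-05) on the log2(TPM + 1) scale. CLP and GMP differed by 0.12 (95% interval -0.61 to 0.84, limma adjusted p = 0.832). Of the other PAR bZIP genes and Nfil3, a repressor at the same sites, 0 of 3 were called in LMPP against CLP. For 2 of the 3, Dbp (2.30) and Nfil3 (2.27), that difference was itself called higher in batch 2 than in batch 1. Of all tested genes, 8.58% were called in either direction there. In LMPP against GMP 2 of 3 were higher, Dbp (1.46) and Tef (1.45), both clock-driven relatives of Hlf, and 0 lower, while 21.3% of all tested genes were higher. The call of Dbp ended after quantile normalization (1.09, limma adjusted p = 0.0543).

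Mecom encodes a zinc finger factor that long-term stem cells need, from a long locus on the minus strand of chromosome 3 (29951296 to 30548008). It was listed at 69.38, 20.73, 26.88 and 78.39 TPM in LMPP, at 2.72, 16.2, 0.33 and 0.11 TPM in CLP, and at 1.35, 2.6, 1.39 and 0.48 TPM in GMP. No LMPP value overlapped the others, but CLP batch 1 replicate 2 came close, at 16.2 TPM, to the lowest LMPP library. Over the CLP libraries Mecom spanned a wider ratio than the other genes listed above 0 in all of them. The difference was 3.78 in LMPP against CLP (SE 0.665, limma adjusted p = 0.00531) and 4.20 in LMPP against GMP (SE 0.665, limma adjusted p = 0.000822). With the batch 2 CLP libraries left out, the first of these was 2.51 and no longer called (limma adjusted p = 0.0584). CLP against GMP was 0.41 (95% interval -1.03 to 1.86), and -0.32 without CLP batch 1 replicate 2. The antisense gene Mecomos, at no more than 2.93 TPM, overlaps Mecom, and the sources used here do not say whether reads were assigned by strand.

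Prdm16, the closest relative of Mecom and a factor for stem cell maintenance, lies on the minus strand of chromosome 4 (154316125 to 154636873) and was the lowest of the 8 in LMPP. Its level was 2.89, 2.61, 1.56 and 7.92 TPM over the LMPP libraries, 0.64, 0.71, 1.54 and 1.09 TPM over the CLP libraries, and 0.6, 2.13, 1.01 and 2.25 TPM over the GMP libraries. LMPP lay just above CLP, with the nearest libraries at 1.56 and 1.54 TPM, and overlapped GMP. The difference was 1.11 in LMPP against CLP (95% interval 0.31 to 1.91, limma adjusted p = 0.0762) and 0.82 in LMPP against GMP (95% interval 0.02 to 1.62, limma adjusted p = 0.112), so neither was called. Without the haemoglobin-rich LMPP batch 2 replicate 1, both were called, at 1.44 (limma adjusted p = 0.0301) and 1.16 (0.0264). The antisense genes Gm13133 and Gm13134, at up to 3.43 and 2.47 TPM, overlap Prdm16 and were of its own size.

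Among 6 other tested PRDM genes of the 7 listed, limma called 1 higher in LMPP than in GMP, Prdm11 (0.81), and 0 lower. Of all tested genes, 21.3% were called higher and 7.62% lower there. Prdm11 was not called after median-ratio scaling (0.56) or quantile normalization (0.40), or without the haemoglobin-rich pair (0.79). Of 10 genes for factors that work with MECOM or PRDM16, 3 were higher in LMPP than in CLP and 0 lower. Over all tested genes the shares were 7.23% and 2.8%. Among the 3 were Gata2 (2.37), a stem cell transcription factor, and Ctbp2 (0.99), a corepressor. In LMPP against GMP 3 of the 10 were higher and 0 lower, beside 21.3% and 7.62% of all tested genes. Kmt2a (1.08) and Ehmt1 (0.66), the genes of histone methyltransferases, were among these. The call of Ehmt1 ended after median-ratio scaling (0.39, limma adjusted p = 0.124) and quantile normalization (0.47, 0.0746), and that of Ctbp2 in LMPP against CLP with the batch 2 CLP libraries left out (0.79, 0.0683). After median-ratio scaling the counts of these 10 were 3 higher and 1 lower in LMPP against CLP and 2 higher in LMPP against GMP. Their medians were 0.06 and 0.29, beside 0.17 and 0.24 for all tested genes, and the first became -0.11 with that scaling.

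Mllt3, which encodes a YEATS-domain reader of acylated histones that joins the super elongation and DOT1L complexes, lies on the minus strand of chromosome 4 (87769925 to 88033364). Its level was 12.65, 20.16, 27.31 and 36.82 TPM over the LMPP libraries, 9.5, 8.39, 42.15 and 57.21 TPM over the CLP libraries, and 9.31, 7.54, 13.8 and 10.95 TPM over the GMP libraries. The batch 2 CLP libraries were the highest of all 12 and the batch 1 CLP libraries were below every LMPP library. LMPP and CLP differed by 0.08 (95% interval -0.64 to 0.80, limma adjusted p = 0.901) on the log2 scale. Within batch 1 the difference was 0.78 and within batch 2 it was -0.62, and neither was called. It was 0.89 with the batch 2 CLP libraries left out (limma adjusted p = 0.0583) and -0.085 after median-ratio scaling. LMPP exceeded GMP by 1.08 (SE 0.332, limma adjusted p = 0.0293) with overlapping libraries. That call ended after median-ratio scaling (0.81, limma adjusted p = 0.0947) and quantile normalization (0.84, 0.0707).

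Leaving out LMPP batch 1 replicate 1 or 2, LMPP batch 2 replicate 3 or either GMP library of batch 2 also ended the call of Mllt3 in LMPP against GMP (limma adjusted p 0.0515 to 0.0933). Of 13 other genes of its complexes, 0 were called in LMPP against CLP. In LMPP against GMP, 4 of the 13 were higher and 1 lower, near the 21.3% and 7.62% of all tested genes, and the median of 0.26 lay near their 0.24. Aff3 (2.52), Kmt2a (1.08), Mllt6 (0.94) and Aff4 (0.84) were higher and Aff1 (-0.84) was lower, where AFF proteins are scaffolds of the super elongation complex and KMT2A is the methyltransferase that MLLT3 is fused to in leukaemia. After median-ratio scaling 2 of these 13 were higher and 1 lower, without the calls of Mllt6 (0.73) and Aff4 (0.56). The call of Mllt6 also ended after quantile normalization (0.42) and without the haemoglobin-rich pair (0.99, limma adjusted p = 0.0677).

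Msi2, an RNA-binding protein that controls translation of stem cell messages, lies on the minus strand of chromosome 11 (88339382 to 88718513). Its level was 82.28, 79.51, 66.38 and 98.85 TPM over the LMPP libraries, 55.74, 56.61, 52.04 and 47.13 TPM over the CLP libraries, and 12.43, 12.92, 18.27 and 15.49 TPM over the GMP libraries. The 3 types did not overlap, in the order LMPP, CLP, GMP, and the CLP mean was 64.7% and the GMP mean 18.1% of the LMPP mean. The difference was 0.61 in LMPP against CLP (SE 0.162, limma adjusted p = 0.0351), 2.39 in LMPP against GMP (SE 0.162, limma adjusted p = 4.78e-06) and 1.78 in CLP against GMP (SE 0.162, limma adjusted p = 1.69e-05). Msi2 was the single gene of the 8 whose CLP libraries all lay above all GMP libraries.

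The call of Msi2 in LMPP against CLP was the weakest of the 6. It ended after median-ratio scaling (0.43, limma adjusted p = 0.0842), without both CLP libraries of batch 2 (0.42, 0.204), and without LMPP batch 1 replicate 1 or 2, LMPP batch 2 replicate 3, CLP batch 1 replicate 1, CLP batch 2 replicate 1 or 2, or GMP batch 2 replicate 2 in turn (limma adjusted p 0.0523 to 0.0998). Of 7 genes for Musashi relatives and other RNA-binding partners, 5 were tested, and 0 were called in either LMPP comparison. For 3 of the 5 the LMPP minus CLP difference itself was called lower in batch 2 than in batch 1. These were Hnrnpd (-1.64), Syncrip (-1.01) and Hnrnpab (-0.83), and 8.58% of all tested genes were called in either direction. Gm15893 and Gm11510, at up to 8.8 and 5.65 TPM, overlap the Msi2 locus.

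Angpt1, the gene of the secreted ligand angiopoietin 1, lies on the minus strand of chromosome 15 (42424723 to 42676977). Its level was 74.48, 68.93, 49.3 and 61.58 TPM over the LMPP libraries, 10.05, 12.66, 3.41 and 4.84 TPM over the CLP libraries, and 7.02, 6.85, 17.35 and 11.87 TPM over the GMP libraries. All LMPP values were well above the others, and CLP and GMP overlapped. The CLP mean was 12.2% and the GMP mean 16.9% of the LMPP mean, so Angpt1 was low but on in both. The difference was 3.02 in LMPP against CLP (SE 0.363, limma adjusted p = 0.000598) and 2.53 in LMPP against GMP (SE 0.363, limma adjusted p = 0.000441). CLP and GMP differed by -0.48 over both batches (95% interval -1.27 to 0.31), by 0.63 within batch 1 (limma adjusted p = 0.0353) and by -1.60 within batch 2 (limma adjusted p = 0.0175). The difference between those within-batch values was not tested.

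Among the other angiopoietin and TIE genes, 4 of 6 were tested, and 2 were higher in LMPP than in CLP, Tie1 (1.45) and Tek (0.87), with 0 lower. Over all tested genes, 7.23% were called higher and 2.8% lower. Tek encodes the receptor of angiopoietin 1 and Tie1 its coreceptor. Both calls ended after quantile normalization (Tek 0.32, Tie1 0.95), that of Tek also without both CLP libraries of batch 2 (0.92) or the haemoglobin-rich pair (0.89), and in LMPP against GMP 0 were called. The range of Tek was 0.81 to 1.17 TPM over LMPP libraries, 0.02 to 0.42 TPM over CLP libraries and 0.18 to 1 TPM over GMP libraries, so the ligand was listed far above its receptor in all types. Marrow stromal cells also make Angpt1. The summed TPM of 12 stromal and osteolineage markers was 9.61 to 26.87 in LMPP, 3.73 to 17.91 in CLP and 9.61 to 11.17 in GMP, and 2 to 6 of the 12 reached 1 TPM in LMPP libraries, 1 to 4 in CLP libraries and 3 in each GMP library. Pdgfrb, a receptor of mural and stromal cells, ranged over 4.5 to 9.36 TPM across LMPP libraries, 0.08 to 6.19 TPM across CLP libraries and 1.55 to 2.86 TPM across GMP libraries. Cxcl12, a stromal chemokine, peaked at 8.89 TPM among LMPP libraries, but its LMPP mean was 2.70 TPM and its lowest LMPP value 0.06 TPM. Its highest value was 3.96 TPM for CLP and 0.15 TPM for GMP. Vcam1, of the same list, was highest in GMP, with means of 5.665 (GMP), 1.75 (LMPP) and 1.56 TPM (CLP). Spp1 means lay closer together, at 3.05 (LMPP), 2.79 (CLP) and 2.265 TPM (GMP). Col1a1 was at no more than 0.05 TPM and Col3a1 at no more than 0.01 TPM in any library. The part of stromal transcripts in the level of Angpt1 was not tested.

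Emcn, a sialomucin of endothelium and stem cells, lies on the plus strand of chromosome 3 (137341067 to 137432185). Its level was 14.81, 18.99, 7.79 and 19.7 TPM over the LMPP libraries, 2.92, 5.11, 0.82 and 4 TPM over the CLP libraries, and 1.15, 0.5, 1.11 and 0.28 TPM over the GMP libraries. LMPP lay above both other types. CLP and GMP overlapped through the CLP library at 0.82 TPM, CLP batch 2 replicate 1. The difference was 2.01 in LMPP against CLP (SE 0.371, limma adjusted p = 0.00693) and 3.17 in LMPP against GMP (SE 0.371, limma adjusted p = 0.000115). CLP exceeded GMP by 1.16 (SE 0.371, limma adjusted p = 0.0391), and that call ended under 14 of the 27 alternative settings. They included quantile normalization (0.95, limma adjusted p = 0.106) and leaving out LMPP batch 1 replicate 1 or 2, CLP batch 1 replicate 1 or 2, CLP batch 2 replicate 2, GMP batch 1 replicate 1 or 2, or GMP batch 2 replicate 2 (limma adjusted p 0.0513 to 0.107).

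Of 5 tested sialomucins and related mucins among 7 listed, 3 were higher in LMPP than in CLP and 0 lower. The shares of all tested genes were 7.23% and 2.8%. The 3 were Muc13 (4.09), an epithelial-type membrane mucin, Cd34 (2.72), which was used in the gates, and Spn (0.45), the gene of CD43. The call of Spn ended after median-ratio scaling (0.28), without both CLP libraries of batch 2 (0.52) and without the haemoglobin-rich pair (0.51). In LMPP against GMP 0 of the 5 were called, with 1 lower after median-ratio scaling. Endothelial transcripts were looked at beside Emcn and Procr, because both genes are high in vessels. The summed TPM of 15 endothelial markers was 99.12 to 178.64 in LMPP, 56.85 to 189.16 in CLP and 42.05 to 51.32 in GMP, mostly from Pecam1 and Egfl7, which blood progenitors also express. Of the 15, 6 reached 1 TPM in each LMPP library, 3 to 5 in CLP libraries and 3 to 5 in GMP libraries. The range of Esam was 1.39 to 1.8 TPM over LMPP libraries, 0.11 to 0.7 TPM over CLP libraries and 0 to 0.1 TPM over GMP libraries. That of Tie1 was 1.04 to 3.94 TPM over LMPP libraries, 0 to 0.58 TPM over CLP libraries and 0.81 to 1.49 TPM over GMP libraries. All LMPP values of both lay above all CLP values, as for Emcn and Procr. Tek did so too, but other genes of the list did not. Stab2 ranged from 0 to 0.19 TPM over LMPP libraries and from 0 to 4.02 TPM over CLP libraries. The mean of Cdh5 was 0.14 TPM in LMPP and 0.66 TPM in CLP. Pecam1, Egfl7 and Vwf overlapped between LMPP and CLP. Fabp4 ranged from 0 to 6.11 TPM over LMPP libraries, while Cdh5, Kdr, Cldn5 and Lyve1 were at no more than 0.38 TPM in any of them. The part of endothelial transcripts in the levels of Emcn and Procr was not tested.

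Procr, the endothelial protein C receptor also called CD201, lies on the plus strand of chromosome 2 (155751117 to 155755471). It was listed at 7.59, 4.68, 6.39 and 8.33 TPM in LMPP, at 0, 0.19, 0.06 and 0 TPM in CLP, and at 0.05, 0.4, 1.31 and 0.06 TPM in GMP. LMPP did not overlap the other types, CLP was off, and 1 GMP library passed 1 TPM. Procr passed the filter through LMPP, so its calls give no separate support. The difference was 2.85 in LMPP against CLP (SE 0.290, limma adjusted p = 0.000226) and 2.47 in LMPP against GMP (SE 0.290, limma adjusted p = 0.000115), on a scale that understates changes near 0. CLP against GMP was -0.38 (95% interval -1.01 to 0.25). Of 4 tested genes among 7 of the protein C and thrombin receptor system, 2 were higher in LMPP than in CLP, F2rl3 (2.09) and F2r (1.36), which encode thrombin receptors. Thbd (-1.09), the gene of thrombomodulin, was lower. In LMPP against GMP, F2r (2.43), F2rl3 (1.36) and F2rl2 (1.02) were higher and Thbd (-0.66) was lower. Of all tested genes, 7.23% were higher and 2.8% lower against CLP, and 21.3% higher and 7.62% lower against GMP. The call of F2rl2 ended after median-ratio scaling (0.81), after quantile normalization (0.45) and without the haemoglobin-rich pair (0.96), and that of F2rl3 after quantile normalization (0.89).

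**Figure D3:**
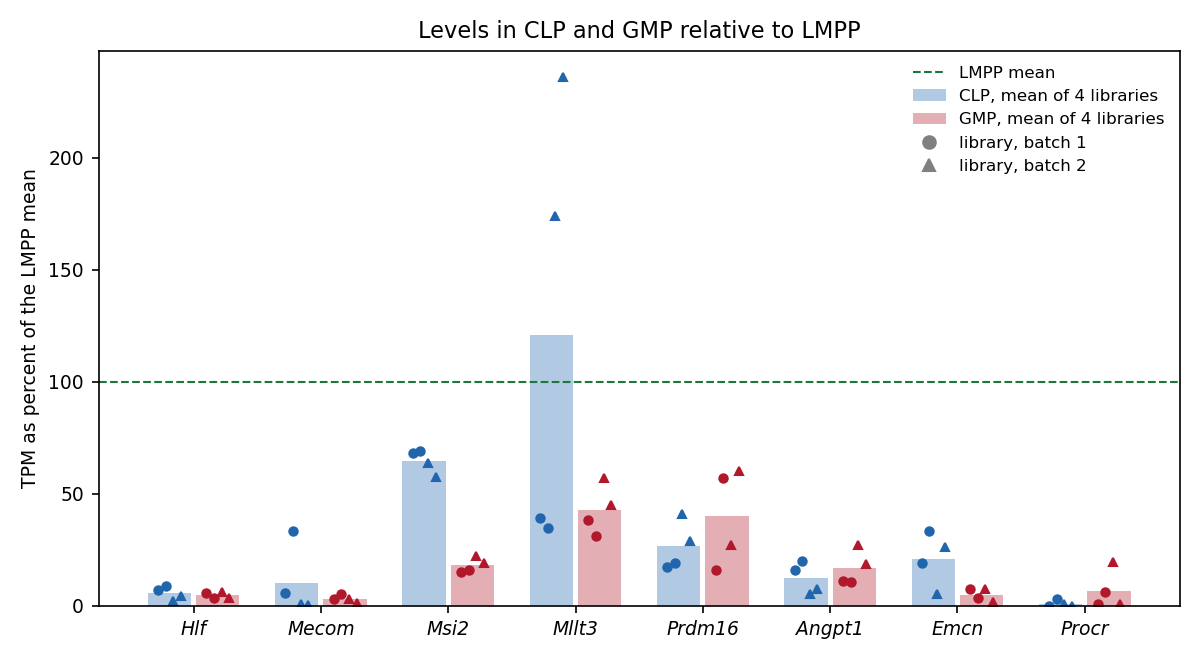
Bars give the mean TPM of each gene in CLP and in GMP as a percent of the LMPP mean (dashed line at 100), and points give the 4 libraries of each type, with circles for batch 1 and triangles for batch 2. Msi2 keeps 64.7% in CLP and 18.1% in GMP, and Mllt3 has CLP libraries on both sides of the line.

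The genes kept and lost on the 2 branches were compared directly in CLP against GMP. There 3 of the 8 genes were called higher in CLP and 0 lower, while 13.9% of tested genes were called higher and 9.96% lower. They were Msi2 (1.78), Emcn (1.16) and Mllt3 (0.998). All CLP libraries lay above all GMP libraries for Msi2, as they did for 11.8% of tested genes. Mllt3 (limma adjusted p = 0.0463) was at 0.08 within batch 1 and at 1.91 within batch 2, and its difference was 0.19 with the batch 2 CLP libraries left out (limma adjusted p = 0.606). The call of Mllt3 also ended after median-ratio scaling (0.90, limma adjusted p = 0.0731) and without LMPP batch 1 replicate 1, LMPP batch 2 replicate 1 or 3, CLP batch 2 replicate 1 or 2, GMP batch 1 replicate 2, or GMP batch 2 replicate 1 or 2 in turn (limma adjusted p 0.0511 to 0.144). The median difference was 0.27 over the 8 genes and 0.09 over all tested genes. Hlf, Mecom, Prdm16, Angpt1 and Procr were not called, with intervals that all included 0.

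The CLP libraries differed between batches in 4 of the 8 genes, by a fit with each type and batch as its own group and 2 libraries on each side. Mllt3 was higher in CLP of batch 2 than in CLP of batch 1, by 2.34 (SE 0.270, limma adjusted p = 0.000249), and 21.3% of tested genes were called higher. Angpt1 (-1.28, limma adjusted p = 0.00306), Mecom (-2.72, 0.0219) and Hlf (-1.14, 0.0305) were lower, and 10.7% of tested genes were called lower. Mecom was under 1 TPM in both CLP libraries of batch 2 and above it in both of batch 1. The call of Mecom ended without CLP batch 1 replicate 2 or CLP batch 2 replicate 2, and that of Hlf without CLP batch 1 replicate 1 or 2 or CLP batch 2 replicate 1. These shifts ran beside the drop of Flt3 and Cd34 and the larger B lineage sum in the same libraries, and the part of those in the result was not tested.

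**Figure D4:**
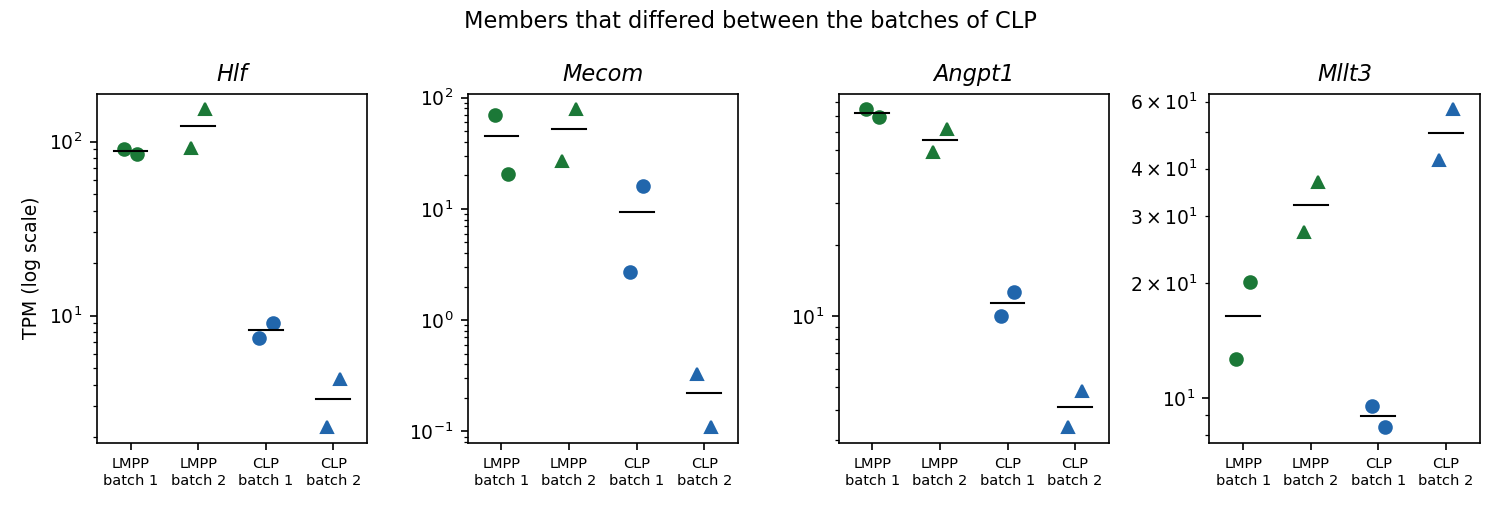
TPM on a log axis is plotted for Hlf, Mecom, Angpt1 and Mllt3 in the 2 libraries of LMPP and of CLP in each batch, with a line at the mean of each pair. CLP of batch 2 lie below CLP of batch 1 for Hlf, Mecom and Angpt1 and above them for Mllt3.

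Whether the step between LMPP and CLP itself differed between batches was tested as an interaction. None of the 8 genes was called by limma (0 of 8, with 4 at an unadjusted p under 0.05), against 8.58% of tested genes in either direction. The largest were 2.99 for Mecom (limma adjusted p = 0.117), 1.56 for Hlf (0.0777), -1.39 for Mllt3 (0.0510) and 0.90 for Angpt1 (0.125), each the batch 2 difference minus the batch 1 difference. With 1 library left out, single genes were called at adjusted p-values of 0.0220 to 0.0478 in limma. These were Mllt3 without LMPP batch 1 replicate 1 or CLP batch 2 replicate 1, Hlf without LMPP batch 2 replicate 1 or CLP batch 2 replicate 2, and Mecom without CLP batch 1 replicate 1. Within batch 1 the LMPP against CLP differences were 3.27 for Hlf, 2.56 for Angpt1, 2.29 for Mecom, 1.86 for Emcn and 0.52 for Msi2. Within batch 2 they were 4.83 for Hlf, 3.47 for Angpt1, 2.16 for Emcn and 0.70 for Msi2, so these kept their direction in each batch. With 2 libraries per type, limma called Hlf and Angpt1 in both batches and Emcn in batch 1, and called neither Msi2 in either batch nor Mecom in batch 1 (limma adjusted p = 0.0827). The differences between LMPP and GMP were 4.01 in batch 1 and 4.33 in batch 2 for Hlf, 3.19 and 1.87 for Angpt1, 3.31 and 3.04 for Emcn, and 0.86 and 1.30 for Mllt3, and limma called these 4 and Msi2 in both batches. Mecom had no value within batch 2, where it did not pass the filter. Procr passed the filter within neither batch alone. Without both CLP libraries of batch 2, the differences in LMPP against CLP were 3.35 for Hlf, 2.23 for Angpt1, 2.65 for Procr and 1.79 for Emcn, and these 4 stayed called. With the haemoglobin-rich pair left out, 7 of the 8 genes were called higher in LMPP than in CLP and all 8 higher in LMPP than in GMP. Prdm16 was the gene gained in each comparison. The medians of all tested genes were then 0.20 and 0.25, beside 0.17 and 0.24 with all libraries. The shares of all tested genes called in these settings are not reported here, so whether the gain is particular to these genes was not tested.

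A wider list of 46 stem cell genes, with the 8 taken out, was read beside them. Of 37 tested, 19 were higher in LMPP than in CLP and 1 lower, with a median of 0.98, while 7.23% of all tested genes were higher and 2.8% lower, with a median of 0.17. Among the higher ones were Myct1 (3.76), a target of MYC, and Ifitm1 (3.27), an interferon-induced membrane protein, and Socs2 (-3.20), an inhibitor of cytokine signalling, was the lower one. In LMPP against GMP, 23 were higher and 0 lower, with a median of 1.12, beside 21.3% higher, 7.62% lower and a median of 0.24 over all tested genes. Among these were Ly6a (3.86), the gene of Sca1 and so a gate gene, and Meis1 (3.00), a HOX partner. Fgd5, Esam, Nkx2-3 and Robo4 were higher in both comparisons but reached 1 TPM in LMPP libraries only. They passed the filter through LMPP, so their calls give no separate support. The gate genes Cd34, Kit and Ly6a were among those higher than in CLP, and Kit and Ly6a among those higher than in GMP. After median-ratio scaling, with 36 tested, 18 were higher in LMPP than in CLP and 1 lower, and 20 were higher in LMPP than in GMP and 2 lower. Over all tested genes that scaling gave 533 higher and 604 lower against CLP, and 1646 higher and 1944 lower against GMP. In CLP against GMP, without that scaling, 6 of the 37 were higher and 7 lower, beside 13.9% and 9.96% of all tested genes. With the batch 2 CLP libraries left out, 17 of the list were higher and 3 lower in LMPP against CLP, and 12 higher and 6 lower in CLP against GMP. The shares of all tested genes called in that setting are not reported here.

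The genes whose profiles over the 12 libraries were most like each of the 7 genes called between any types were found among 9656 candidates. Likeness was the mean absolute difference between log2(TPM + 1) profiles, each centred on its own mean, where a smaller value is closer. Hlf was closest to Tnip3 (0.424) and Vldlr (0.467), and Mecom to Ctla2b (0.591) and Vldlr (0.596). Angpt1 was closest to Slc22a3 (0.333) and Crispld1 (0.393), and Procr to Crispld1 (0.311) and Arhgap6 (0.346). Emcn was closest to Tgtp1 (0.380) and Cysltr2 (0.389), and Mllt3 to Wnk1 (0.226) and Eef1akmt2 (0.229). Msi2 was closest to H2-Q7 (0.245) and H2-Q6 (0.252). Ctla2b, Tgtp1, H2-Q7 and H2-Q6 have near copies that share reads, so their values are uncertain. The median distance of all candidates was 1.78 for Hlf and 0.78 for Mllt3.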

How the data were processed

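The 12 libraries were taken from a deposited table of TPM values, which per its column totals the authors had scaled to 999999 to 1000001 per library. The submitters' processing notes name mm10 as the build and list Bowtie2 (2.2.0), RSEM (1.2.12) and edgeR (3.10.0), in an order and with settings not stated there. Another 17 columns matched no sample by name and were not used. Symbols and positions came from GENCODE for GRCm38, with 37607 IDs matched. No 2 libraries held identical values.

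A gene was tested when 4 or more libraries reached 1 TPM, which kept 12718 genes. Values were taken as log2(TPM + 1) and fitted with limma 3.58.1 in R 4.3.3 with type and batch, a variance trend and Benjamini-Hochberg adjustment over all tested genes. Tests were two-sided, and genes were called at an adjusted p under 0.05. A second fit gave each type and batch its own mean. Named genes of other lists were up to 3 called genes per list with the largest difference in the 2 LMPP comparisons, and those behind counts of 5 or fewer. Genes named for likeness were the 2 closest to each gene called between types, with at least 5 TPM in some library. Overlapping genes, markers and the printed promoters were named after their values were seen. Python 3.11.15 was used for the rest. The 8 genes, the lists and the alternatives were chosen with earlier results of these data known. One alternative, without both CLP libraries of batch 2, was added after the data were seen. Values of some genes of these lists are not reported here.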

Additional observations from a re-analysis of the deposited data

Results flagged for a closer look

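Of 24 groups of 4 libraries, 2 held a library far from the other 3, and chance alone flags about 1 group in 20. Hlf stood at 152.99 TPM in LMPP batch 2 replicate 3, while the other 3 LMPP libraries lay between 84.45 and 91.25 TPM. Mecom stood at 16.2 TPM in CLP batch 1 replicate 2, while the other 3 CLP libraries lay between 0.11 and 2.72 TPM.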

How the results depend on the processing

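Of 865 values of single genes under alternative settings, 762 kept their direction and side of the threshold, 69 lost a call, 12 gained one and 22 changed sign, 0 of them called in the fit reported. Hlf, Angpt1 and Procr stayed called in LMPP against CLP under every setting that gave a value, and so did Hlf, Mecom, Msi2, Angpt1, Emcn and Procr in LMPP against GMP. The calls of Procr give no separate support, because it passed the filter through LMPP. With the replicate block in place of the batch term, 3 of the 8 genes were called in LMPP against CLP and 1 in CLP against GMP. Same-numbered libraries deviated together at r of -0.106 to 0.169 after removal of type and batch means. With 2 libraries per type and batch, values for same and different numbers mirror each other, so this check cannot show whether the numbers pair the samples. After removal of type means alone, r was 0.0436 to 0.541 for the same number and 0.0757 to 0.375 for different numbers. Whether the samples are paired is thus not known. LMPP against CLP gave 3 calls within batch 1 and 2 within batch 2, with 6 genes passing the filter in each and 2 libraries per type. CLP against GMP gave 1 call with no filter, with quantile normalization, with no batch term and with only the 2 types compared. CLP of batch 2 against CLP of batch 1 gave 2 calls with no filter, and the interaction gave 1 call with a filter at 5 TPM. For most of these settings, and with single libraries left out, the shares of all tested genes called are not reported here. Whether these counts exceed those shares was not tested. With the line for off at 2 TPM, 2 genes were off in CLP and 2 in GMP.

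Leaving out 1 library at a time gave 1 to 2 calls in CLP against GMP, 2 to 4 between the CLP batches and 0 to 1 in the interaction. Signs changed in LMPP against CLP for Mllt3 (-0.085 with median-ratio scaling, -0.62 within batch 2, and -0.15 to 0.36 with 1 library left out). In CLP against GMP they changed for Hlf (-0.50 within batch 2, and -0.11 to 0.42 with 1 library left out), Mecom (-0.32 to 0.78) and Angpt1 (0.63 within batch 1, 0.30 without both CLP libraries of batch 2). Between the CLP batches they changed for Procr (0.075 with quantile normalization, and -0.21 to 0.042 with 1 library left out) and Emcn (-1.43 to 0.031). In the interaction they changed for Procr (-0.024 with quantile normalization), Prdm16 (-1.01 to 0.79), Emcn (-0.43 to 1.03) and Msi2 (-0.10 to 0.46). The causes were not tested.

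Over all genes, LMPP against CLP gave 1276 calls, but 609 with no batch term, 212 with the replicate block and 559 with only the 2 types. It gave 606, 760 and 656 without LMPP batch 1 replicate 1, LMPP batch 2 replicate 1 and LMPP batch 2 replicate 3. LMPP against GMP gave 3676 calls, but 2358 with no batch term, 2214 with the block and 1089 within batch 2. CLP against GMP gave 3040, but 1944 with no batch term and 1772 within batch 2. The CLP batches gave 4073, but 2249 without CLP batch 1 replicate 2, and the interaction 1091, with 264 to 2586 over single libraries left out.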
